A study of Homo sapiens with 9 samples.

Results

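The genes described here are the WNT ligands, their frizzled receptors and LRP co-receptors, and the secreted antagonists of the SFRP and Dickkopf families. They were taken by name from the array annotation: every probe, controls aside, whose gene name is WNT or FZD with a number, SFRP1 to SFRP5 or FRZB, DKK1 to DKK4, LRP5 or LRP6. The rule found 40 genes on 47 probes, of 43395 gene names on 58201 probes, and 17 of the 40 genes had a probe bright enough to be tested, of 20107 genes tested in all. They were measured with 1-colour (Cy3) Agilent arrays in 3 sublines of T47D, a luminal breast cancer cell line. T47D-VC1 carries the empty expression vector, T47D-PA6 expresses full-length PTH-AS, a long noncoding RNA from downstream of the parathyroid hormone gene, and T47D-PA5 expresses an incomplete PTH-AS that lacks part of its 5′ side. The incomplete form was included to separate the effect of the RNA from that of carrying a foreign gene. Each group is 1 stable line; those with full-length or incomplete PTH-AS were chosen by the study after G418 selection among several with high expression of the insert. A difference between lines is thus a difference between selected lines, and what the insert does cannot be told apart from what distinguishes the chosen lines. There were 3 arrays for each line, and nothing in the labels says that they came from separate cultures, so p-values measure the spread between these arrays, which may be technical.

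WNT proteins are lipid-modified glycoproteins that act on nearby cells. On the receiving cell a WNT binds a frizzled receptor, and in the canonical branch also LRP5 or LRP6, after which beta-catenin escapes destruction and works with TCF/LEF factors at target genes; other WNT signals act on cell polarity and calcium without beta-catenin. SFRP proteins bind WNTs outside the cell, whereas Dickkopf proteins such as DKK1 bind the LRP co-receptors. In the mammary gland WNT4 is known as a paracrine signal made by luminal cells in response to progesterone.

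Replicate 1 of all 3 lines shared slide 1 and an earlier scan run. The later run scanned both other slides: replicate 2 of the vector and the PA5 line lay on slide 2, and their replicate 3 lay on slide 3 together with replicates 2 and 3 of T47D-PA6. Replicates 2 and 3 of a line lay closer to each other than to replicate 1: the median absolute log2 difference over the tested genes was 0.11, 0.09 and 0.09 between replicates 2 and 3 of T47D-VC1, T47D-PA5 and T47D-PA6, and 0.27, 0.22 and 0.27 between replicates 1 and 2. Values are quantile-normalized signals on a linear scale unless stated as log2. A probe counted as detected where the scanner software marked it well above background, and the lowest such signal was between 9.60 and 15.2 on the 9 arrays, and 44.0% to 48.0% of probes were detected on an array. All 9 luminal markers examined (KRT8, KRT18, KRT19, EPCAM, CDH1, GATA3, FOXA1, ESR1 and PGR) were detected on all 9 arrays. Of 8 fibroblast markers, COL1A2, COL3A1, DCN, LUM and PDGFRA were detected on no array and COL1A1 and THY1 on all 9, with PDGFRB on 2. Of 6 basal markers KRT5 and TP63 were detected on none, KRT14 on 3, KRT17 on 2, and ACTA2 and MME on all 9. The endothelial markers CDH5 and VWF and the leukocyte markers PTPRC and CD14 were also detected on all 9, whereas PECAM1, KDR and CD3E were detected on none. Of these markers 17 were tested, and 3 were called in T47D-PA6 against T47D-VC1, 2 in T47D-PA6 against T47D-PA5 and 0 in T47D-PA5 against T47D-VC1, a reading added after the data were seen. PGR, the progesterone receptor, was lower in T47D-PA6 than in both other lines (-1.07 and -0.69, adjusted p = 0.00742 and 0.0369). CD14 was higher (1.80, adjusted p = 0.00869) and COL1A1 lower (-0.50, adjusted p = 0.0194) against T47D-VC1, and THY1 was lower against T47D-PA5 (-2.03, adjusted p = 0.0314). The summed signal of the leukocyte markers, mostly CD14, was 82.4, 68.8 and 68.5 in T47D-VC1, 130, 148 and 159 in T47D-PA5, and 128, 230 and 238 in T47D-PA6. PTPRC, the other leukocyte marker detected, was at -0.17 in T47D-PA6 against T47D-VC1 (adjusted p = 0.726). The fibroblast sum, nearly all COL1A1 and THY1, was 520, 446 and 469, then 892, 513 and 543, and 379, 303 and 342, and its highest value held more THY1 (576) than COL1A1 (289). The basal sum, mostly ACTA2, was 423, 871 and 749, then 943, 971 and 968, and 1030, 1464 and 1483, with ACTA2 at 1.05 in T47D-PA6 against T47D-VC1 (adjusted p = 0.0547). The luminal sum was 530300, 491700 and 495600, then 530300, 520400 and 518300, and 505300, 523000 and 504600, but most of it is KRT19, which normalization held at its top value (301370) on 8 arrays. The part of these markers in the differences below was not tested. In whole-culture RNA a lower signal from fewer expressing cells and from less RNA in each cell cannot be told apart.

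Of 19 WNT genes, 7 were tested; 5 were detected on all 9 arrays, 4 on some and 10 on none. Of 10 frizzled genes 7 were tested, all detected on all 9 arrays, and both co-receptors were detected on all 9. None of the 5 SFRP and FRZB genes was detected on any array, and of the 4 Dickkopf genes DKK1 alone was. The genes detected on no array were DKK2, DKK3, DKK4, FRZB, FZD6, SFRP1, SFRP2, SFRP4, SFRP5, WNT2, WNT2B, WNT5A, WNT5B, WNT8A, WNT8B, WNT9A, WNT9B, WNT10A and WNT16. WNT1, WNT7A, FZD8 and FZD10 were detected on 1 or 2 of the 9 arrays and did not pass the filter for the tests. WNT1 gave 7.42, 15.3 and 4.88 in T47D-VC1, 14.8, 23.2 and 23.1 in T47D-PA5, and 6.69, 9.15 and 11.1 in T47D-PA6, and was detected on T47D-PA5 replicates 2 and 3. WNT7A gave 2.58, 6.26 and 9.19 in T47D-VC1, 5.15, 2.71 and 63.6 in T47D-PA5, and 6.50, 12.7 and 6.36 in T47D-PA6, so a single array stood out. FZD10 was between 2.77 and 2.86 on 8 arrays and at 20.9 on T47D-PA6 replicate 1. Thus 7 of 10 frizzleds were detected on every array, 10 of 19 ligands were detected on none, and DKK1 was the sole secreted antagonist of the set that could be tested.

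**Figure D1:**
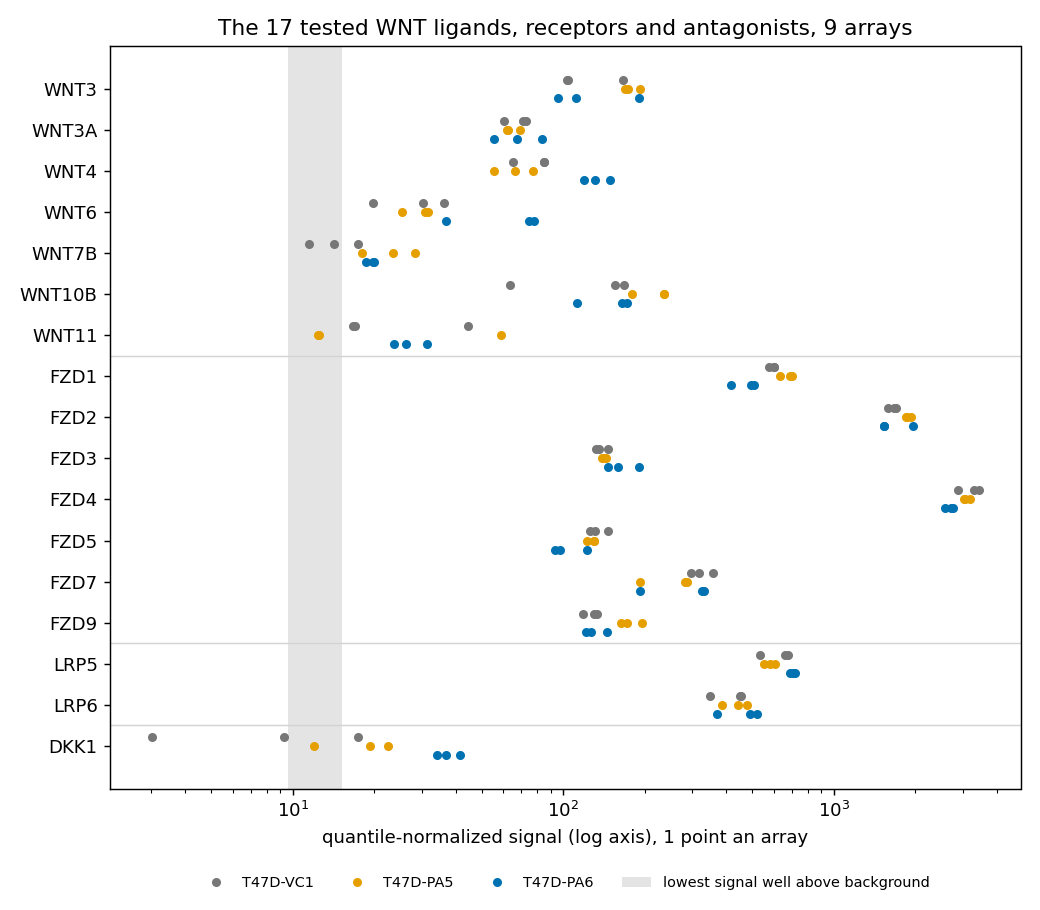
Quantile-normalized signal (log axis) of the 17 tested genes, 1 point for each of 9 arrays, coloured by line and ordered as ligands, frizzled receptors, co-receptors and DKK1; the grey band spans the lowest detected signal on each array, 9.60 to 15.2. Within a gene, the T47D-PA6 points of WNT4, WNT6, WNT7B, DKK1, FZD3 and LRP5 lie above those of T47D-VC1. The T47D-PA6 points of FZD1, FZD4 and FZD5 lie below those of T47D-VC1. Such separation was not counted over all tested genes, so it cannot be read as particular to these genes. Signals of different genes come from different probes and are not to be set against each other.

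Each comparison was fitted with limma over all 20107 genes, with p-values adjusted by the Benjamini-Hochberg method and a threshold of 0.05. Between T47D-PA6 and T47D-VC1, 2 of the 17 genes were called, against 10% of all tested genes: WNT4 and DKK1, both higher in T47D-PA6 (4.65% of all genes were called higher and 5.4% lower). DKK1 entered the tests through T47D-PA6 alone, and where detection on all 9 arrays was required WNT4 was the only one called. Between T47D-PA5 and T47D-VC1, 0 of 17 were called by limma, against 1.67% of all genes, and an unpaired t test also called 0 after adjustment. The unadjusted limma p was under 0.05 for WNT7B, WNT10B and FZD9. All tested genes were not counted at that threshold, so these 3 cannot be set beside the 1.67%. WNT7B entered the tests through the PTH-AS lines alone, where it is higher. Between T47D-PA6 and T47D-PA5, 3 of 17 were called, against 9.75% of all genes: WNT4, higher in T47D-PA6 (3.62% of all genes were called higher), and FZD1 and FZD9, lower (6.13% called lower). The study defined changed array genes by their fold over the control, a rule not used here. Its general statistics name an unpaired t test between datasets, analysis of variance for several groups, and no adjustment. At an unadjusted p under 0.05 the unpaired t test gave 4 members against T47D-VC1 in T47D-PA6 (DKK1, FZD1, FZD4 and WNT4, with 4462 genes). It gave 3 in T47D-PA5 against T47D-VC1 (FZD1, FZD2 and FZD9, with 3012 genes). Between the PTH-AS lines it gave 7 (DKK1, FZD1, FZD4, FZD9, LRP5, WNT4 and WNT6, with 4842 genes). Below, the unpaired test is given after Benjamini-Hochberg adjustment, which the methods do not name. The first and the second comparison share the T47D-VC1 control arrays, and the third uses the T47D-PA6 and T47D-PA5 arrays again, so the comparisons are not independent. Against T47D-VC1, the count for T47D-PA6 was 0 without T47D-VC1 replicate 2, T47D-PA6 replicate 2 or T47D-PA6 replicate 3, and 1 without T47D-VC1 replicate 3 or any 1 array of T47D-PA5. Against T47D-PA5 it was 1 when replicate 2 or 3 of T47D-PA5 or replicate 3 of T47D-PA6 was left out. Log2 fold changes of these 17 genes had their median at 0.14, 0.06 and 0.07 in the order given, beside -0.04, -0.03 and -0.00 over all tested genes.

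**Figure D2:**
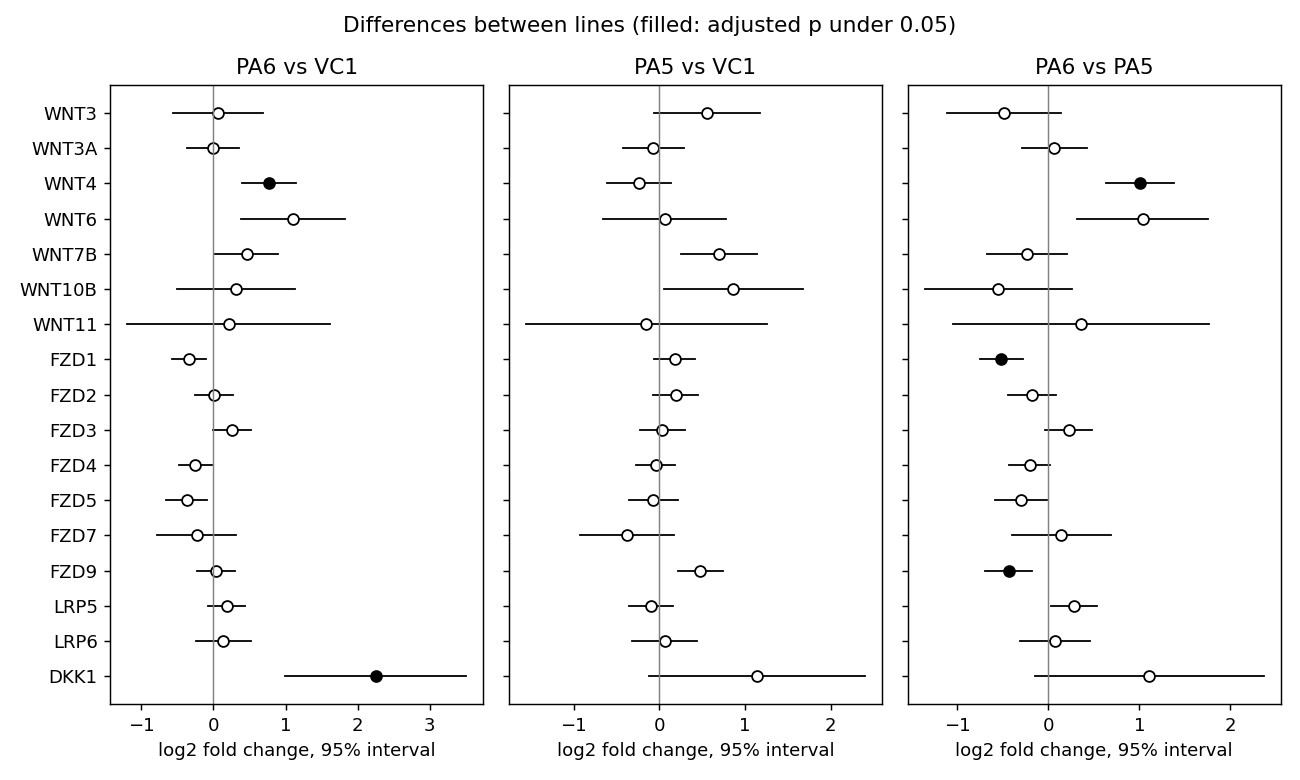
Log2 fold change with its 95% interval (limma) of the 17 tested genes in the 3 comparisons; a filled point has an adjusted p under 0.05. WNT4 is filled in both comparisons with T47D-PA6 (0.77 and 1.01), DKK1 against T47D-VC1 (2.25), and FZD1 and FZD9 against T47D-PA5 (-0.52 and -0.44).

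WNT4 was the only ligand called in T47D-PA6 against both other lines. Its probe (chr1:22443798-22443857, hg19) gave 64.9, 84.6 and 84.8 in replicates 1, 2 and 3 of T47D-VC1, 55.4, 77.5 and 66.1 in T47D-PA5, and 119.6, 131 and 149 in T47D-PA6. Every T47D-PA6 array lay above all 6 others, while T47D-VC1 and T47D-PA5 overlapped. The log2 fold change was 0.77 against T47D-VC1 (1.71-fold, 95% interval 0.40 to 1.15, adjusted p = 0.0239) and 1.01 against T47D-PA5 (2.02-fold, interval 0.64 to 1.39, adjusted p = 0.00857). T47D-PA5 differed from T47D-VC1 by -0.24 (adjusted p = 0.555). A fit with slides as a block gave T47D-PA6 differences of 0.82 and 1.06 (adjusted p = 0.00799 and 0.00598). Within slide 1 they were 0.88 and 1.11, and within slide 3 0.72 and 1.08. The call against T47D-VC1 was lost without T47D-VC1 replicate 2 (adjusted p = 0.051) or 3 (0.0601) and without T47D-PA6 replicate 2 (0.0761) or 3 (0.0935). It was also lost with no filter on dim probes (0.0596) and by the unpaired test after adjustment (0.101), as was that against T47D-PA5 (0.0643), though WNT4 passed that test unadjusted in both. A second WNT4 probe was detected on 1 array of T47D-VC1, none of T47D-PA5 and 1 of T47D-PA6, and was not tested.

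WNT6, a ligand of canonical signalling in embryonic epithelia, had a larger but less even difference. Its signal was 19.9, 36.1 and 30.4 in replicates 1, 2 and 3 of T47D-VC1, 31.7, 30.8 and 25.4 in T47D-PA5, and 36.8, 74.7 and 77.7 in T47D-PA6. Replicates 2 and 3 of T47D-PA6 stood well apart, whereas replicate 1 lay just above the highest T47D-VC1 array. T47D-PA6 was 2.14-fold above T47D-VC1 (95% interval of the log2 value 0.38 to 1.82, adjusted p = 0.0638) and 2.05-fold above T47D-PA5 (interval 0.32 to 1.76, adjusted p = 0.0794), so neither was called. With the replicate number as a block, which pairs arrays of a number and also separates the scan runs, both passed the threshold (adjusted p = 0.0409 and 0.0498). Without T47D-PA6 replicate 1 the log2 values were 1.45 and 1.39 (adjusted p = 0.00982 and 0.0103). After scaling each array to its 75th percentile both were also called, at 1.22 and 1.13 (adjusted p = 0.0265 and 0.0348). Within slide 1 the values were 0.89 and 0.22, and within slide 3 1.33 and 1.59. A slide block gave differences of 1.13 and 1.07 (adjusted p = 0.0532 and 0.0667). Each was called in 4 of 21 alternatives with a test, the fourth being replicates 2 and 3 alone (adjusted p = 0.00316 and 0.00185). Among those without a call were no filter on dim probes (0.167 and 0.201), the adjusted unpaired test (0.256 and 0.199) and a fit to the 2 compared lines alone (0.128 and 0.0919).

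WNT3A, which activates the beta-catenin branch, was read by 2 probes that disagreed. The probe read for the gene (chr1:228247946-228248005, hg19) gave 72.6, 60.4 and 71.2 in T47D-VC1, 69.2, 62.0 and 62.6 in T47D-PA5, and 83.2, 55.2 and 67.2 in T47D-PA6. All 3 lines overlapped, with log2 differences of -0.00 for T47D-PA6 and -0.07 for T47D-PA5 from T47D-VC1. The other probe, further along the gene (chr1:228248893-228248952), gave 11.9, 18.1 and 10.9 in T47D-VC1, 24.9, 31.2 and 41.4 in T47D-PA5, and 34.3, 43.4 and 42.7 in T47D-PA6. On it every array of the PTH-AS lines exceeded every T47D-VC1 array, of which 1 was detected. In a fit of each tested probe on its own, an analysis chosen after the data were seen, the second probe was higher in T47D-PA6 (adjusted p = 0.00599) and in T47D-PA5 (adjusted p = 0.0429) relative to T47D-VC1. That probe entered the tests through the PTH-AS lines alone, where it is high, so these p-values and those of the probe mean below rest on undetected T47D-VC1 arrays. With undetected T47D-VC1 arrays set to the lowest detected signal, T47D-PA6 was at least 2.94-fold and T47D-PA5 at least 2.35-fold above T47D-VC1, and the log2 difference was 0.33 between those lines (adjusted p = 0.449). With the mean of both probes as the value of the gene, the differences from T47D-VC1 were 0.79 (adjusted p = 0.00537) and 0.59 (adjusted p = 0.0437). The probes thus give no common direction for WNT3A, and the cause of the disagreement was not tested.

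**Figure D3:**
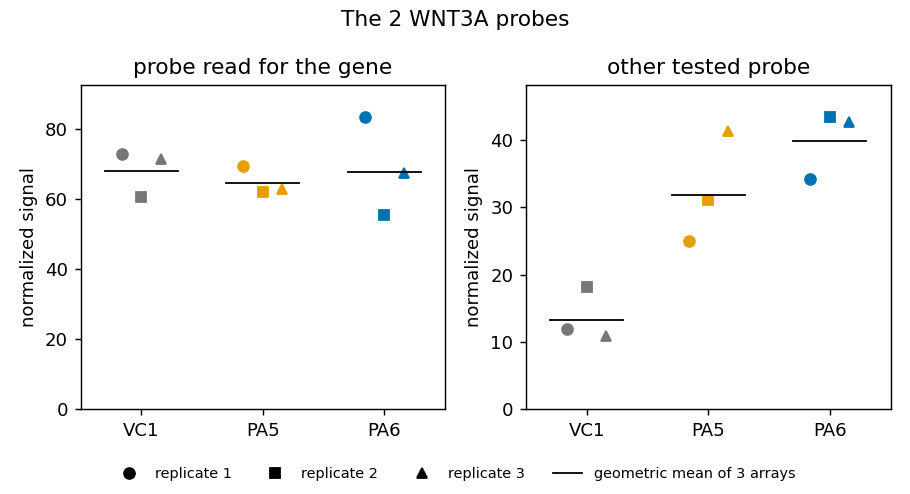
Normalized signal of both WNT3A probes on each array (symbols, replicates 1 to 3; line, geometric mean), with axes from 0. The probe read for the gene overlaps in all lines (vector line mean 67.8, PA5 line 64.5, PA6 line 67.6), whereas the other runs from a mean of 13.3 in T47D-VC1 to 31.8 and 39.9.

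WNT10B, known for its activity in mammary epithelium, gave 63.7, 168 and 155 in T47D-VC1, 179.6, 235 and 236 in T47D-PA5, and 113, 164 and 172 in T47D-PA6. Every T47D-PA5 array was the higher, although T47D-VC1 replicate 1 was far below its other replicates. The log2 difference of T47D-PA5 from T47D-VC1 was 0.86 (95% interval 0.05 to 1.67, unadjusted p = 0.0401, adjusted p = 0.293 by limma), but 0.41 without T47D-VC1 replicate 1 (adjusted p = 0.348) and 1.49 in replicate 1 alone. On replicates 2 and 3 alone it was 0.55 and called (adjusted p = 0.00919). The remaining tested ligands, WNT3, WNT7B and WNT11, differed between lines by log2 values from -0.49 to 0.69 with none called. WNT7B at 0.69 (adjusted p = 0.13) and WNT3 at 0.56 (adjusted p = 0.386) were the higher values, both for T47D-PA5 against T47D-VC1 and both without overlap of the arrays. A second WNT7B probe, detected on 5 arrays and not tested, did not rise in T47D-PA5. It gave 7.20, 21.1 and 21.1 in T47D-VC1, and 16.2, 15.5 and 11.1 in T47D-PA5. A further untested probe was undetected in both lines, with means of 5.05 in T47D-VC1 and 9.55 in T47D-PA5. The tested WNT7B probe was detected on 2 arrays of T47D-VC1 and on all arrays of the PTH-AS lines. It thus entered the tests through those lines alone, where it is higher. With the undetected T47D-VC1 array set to the lowest detected signal on it, T47D-PA5 was at least 1.57-fold above T47D-VC1. WNT11 was detected on all arrays of T47D-VC1 and T47D-PA6 and on 1 of T47D-PA5. Its replicate 1 was the highest array in each line (44.2, 59.0 and 31.4), all on slide 1.

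Among the receptors, FZD1 differed between the 2 PTH-AS lines. Frizzleds are the membrane receptors that bind WNT through a cysteine-rich domain, and FZD1 works with LRP co-receptors. Its probe (chr7:90897840-90897899, hg19) gave 602, 602 and 578 in T47D-VC1, 698, 633 and 689 in T47D-PA5, and 416, 506 and 493 in T47D-PA6. The lines did not overlap at all, T47D-PA5 being the highest and T47D-PA6 the lowest. T47D-PA6 was lower than T47D-PA5 by a log2 fold change of -0.52 (95% interval -0.76 to -0.28, adjusted p = 0.0198). The differences from T47D-VC1 were -0.34 for T47D-PA6 (adjusted p = 0.0787) and 0.18 for T47D-PA5 (adjusted p = 0.475), neither of them called. With the slide as a block the first value was -0.55 (adjusted p = 0.0305), and it was -0.75 within slide 1 and -0.46 within slide 3. The call was lost without T47D-PA5 replicate 2 (adjusted p = 0.0514) or 3 (0.0816) and without T47D-PA6 replicate 3 (0.0598), and by the unpaired test after adjustment (0.0792).

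FZD9 gave 129.6, 118 and 134 in T47D-VC1, 196, 164 and 172 in T47D-PA5, and 126, 121 and 145 in T47D-PA6 (probe at chr7:72850343-72850402, hg19). The T47D-PA5 arrays stood above all others, and T47D-VC1 and T47D-PA6 overlapped. T47D-PA6 was below T47D-PA5 by a log2 fold change of -0.44 (95% interval -0.70 to -0.18, adjusted p = 0.0477). T47D-PA5 was above T47D-VC1 by 0.48 (interval 0.22 to 0.74), which was not called (adjusted p = 0.0866). With the slide as a block the T47D-PA6 difference from T47D-PA5 was -0.49 (adjusted p = 0.047), and it was -0.63 within slide 1 and -0.38 within slide 3. The call lay at the edge of the threshold: it was lost without any 1 of the 9 arrays other than T47D-VC1 replicate 1 (adjusted p from 0.0656 to 0.173), and also with the 75th percentile scaling (0.068), with no filter on dim probes (0.0722), on replicates 2 and 3 alone (0.0729), with a trend in the prior variance (0.0623), by the adjusted unpaired test (0.119) and in a fit to the 2 compared lines alone (0.0766). It was thus called in 7 of 21 alternatives with a test.

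FZD8 lay at the edge of detection. Its signal was 6.04, 16.3 and 12.0 in replicates 1, 2 and 3 of T47D-VC1, 10.1, 6.17 and 7.41 in T47D-PA5, and 2.63, 2.56 and 2.56 in T47D-PA6. Replicates 2 and 3 of T47D-VC1 were detected and none of the arrays of the other lines were, with T47D-PA6 at the bottom of the scale on all 3 arrays. It was too dim to pass the filter, and no fold is given because the T47D-VC1 mean (10.6) was below the mean of the lowest detected signals on the T47D-PA6 arrays (11.6).

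The other 5 tested frizzleds (FZD2, FZD3, FZD4, FZD5 and FZD7) and the co-receptors LRP5 and LRP6 were detected on every array and none was called. In T47D-PA6 against T47D-VC1 these frizzleds ranged from -0.37 (FZD5) to 0.26 (FZD3) on the log2 scale. FZD4 and FZD5 were below T47D-VC1 on every T47D-PA6 array (-0.25 and -0.37, adjusted p = 0.151 and 0.0982). FZD3 and LRP5 were above T47D-VC1 on every T47D-PA6 array (adjusted p = 0.194 for FZD3). FZD7 split by replicate, with replicate 1 at 192 in both T47D-PA5 and T47D-PA6 and the remaining arrays of those lines from 281 to 332. LRP5 differed by 0.19 and LRP6 by 0.14 in T47D-PA6 from T47D-VC1 (adjusted p = 0.338 and 0.659). For the co-receptors the 95% intervals of these differences reached from -0.07 to 0.44 and from -0.24 to 0.52.

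**Figure D4:**
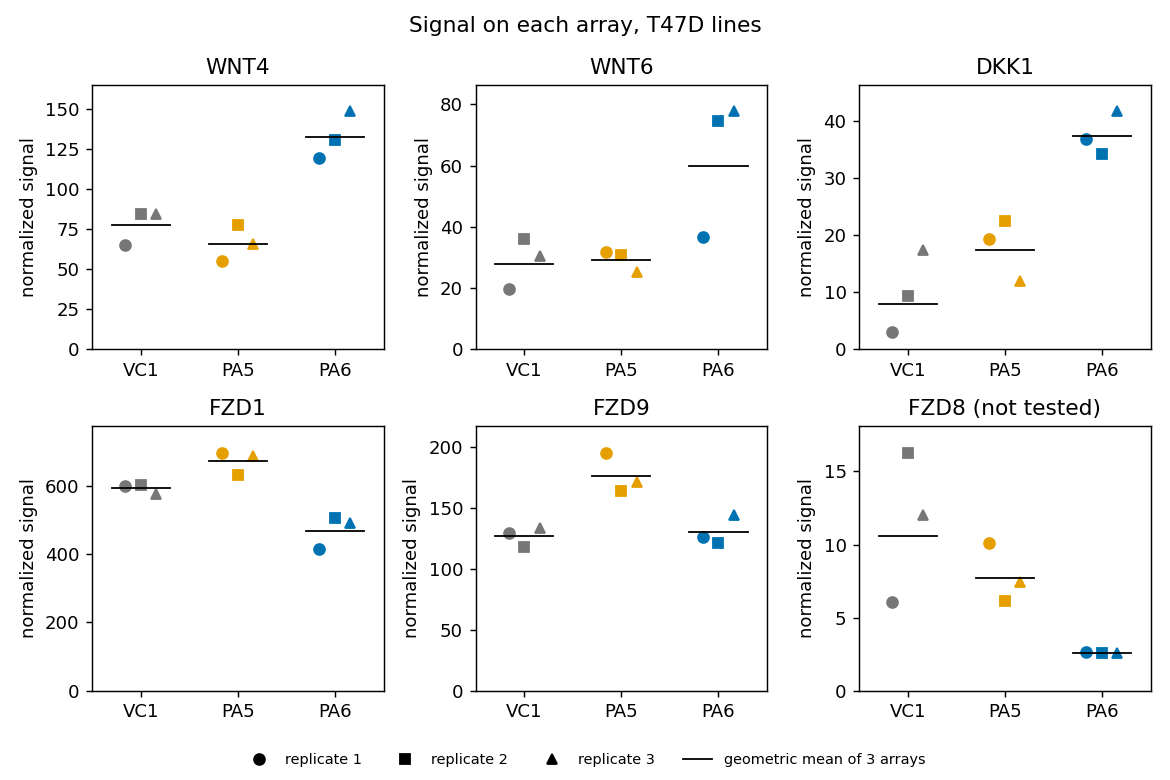
Normalized signal on each array (symbols, replicates 1 to 3; line, geometric mean of 3 arrays) for WNT4, WNT6, DKK1, FZD1, FZD9 and FZD8, with axes from 0. WNT4 reaches 119.6 to 149 in T47D-PA6 against at most 84.8 elsewhere, FZD1 is ordered T47D-PA5, T47D-VC1, T47D-PA6 with no overlap, and FZD8 is at 2.56 to 2.63 in T47D-PA6.

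DKK1 was the antagonist that differed. It binds LRP5 and LRP6 and so blocks the canonical branch, and it is itself a known target of beta-catenin. Its signal (probe at chr10:54076687-54076746, hg19) was 3.01, 9.30 and 17.4 in T47D-VC1, 19.3, 22.4 and 12.0 in T47D-PA5, and 36.7, 34.2 and 41.6 in T47D-PA6. The T47D-PA6 arrays were close together and above all others, while T47D-PA5 overlapped with T47D-VC1. It was detected on 1 array of T47D-VC1, 2 of T47D-PA5 and 3 of T47D-PA6. With each undetected array of T47D-VC1 set to the lowest detected signal on it, a bound chosen after the data were seen, T47D-PA6 was at least 2.57-fold above T47D-VC1. The gene entered the tests through T47D-PA6 alone, the line in which it is high. The fitted log2 values were 2.25 against T47D-VC1 (95% interval 0.99 to 3.51, adjusted p = 0.0388) and 1.11 against T47D-PA5 (interval -0.15 to 2.37, adjusted p = 0.256). T47D-PA5 differed from T47D-VC1 by 1.14 (adjusted p = 0.376). The fitted size rests on dim T47D-VC1 arrays: it was 3.61 within slide 1, 1.12 within slide 3, 1.56 without T47D-VC1 replicate 1 (adjusted p = 0.0263), and 0.46 after a background correction with an offset of 50 (adjusted p = 0.0227). The call was lost with the slide as a block (2.31, adjusted p = 0.0582). It was also lost without T47D-VC1 replicate 2, any 1 array of T47D-PA5 or any 1 array of T47D-PA6 (adjusted p from 0.0518 to 0.119), with no filter on dim probes (0.115), by the adjusted unpaired test (0.203) and in a fit to the 2 compared lines alone (0.0832). It was thus called in 9 of 20 alternatives with a test.

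For the other secreted antagonists no level can be given. The SFRP genes and FRZB had signals up to 9.47 on any array, with no probe well above background. DKK2, DKK3 and DKK4 reached up to 10.5, likewise not well above background.

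To show the regulatory sequence beside genes that shifted, promoters were read from RefSeq (GRCh38.p14), 300 bases around each annotated start, most of them upstream. Of the 40 genes, 27 had an entry, 10 of them tested. The TCF/LEF core was searched as CTTTGA or CTTTGT on both strands; 26.3% of 27305 promoters hold at least 1 of these (13.1% hold CTTTGA and 16% CTTTGT). Of the 27 genes 4 hold at least 1, and among the 10 tested these are DKK1, WNT3 and FZD1. DKK1 holds 3 matches (0.912% of all promoters hold 3 or more), and SP5, a target gene of the pathway, holds 4 (0.0989% hold 4 or more). WNT4, WNT6 and FZD9 hold none in this window. The promoters are shown 5′ to 3′ on the strand of the gene for WNT4 (chr1:22143048-22143347, minus strand), DKK1 (chr10:52314031-52314330, plus strand), FZD1 (chr7:91264183-91264482, plus strand) and SP5 (chr2:170715087-170715386, plus strand), with matches in capitals (TCAAAG is CTTTGA on the opposite strand).
WNT4: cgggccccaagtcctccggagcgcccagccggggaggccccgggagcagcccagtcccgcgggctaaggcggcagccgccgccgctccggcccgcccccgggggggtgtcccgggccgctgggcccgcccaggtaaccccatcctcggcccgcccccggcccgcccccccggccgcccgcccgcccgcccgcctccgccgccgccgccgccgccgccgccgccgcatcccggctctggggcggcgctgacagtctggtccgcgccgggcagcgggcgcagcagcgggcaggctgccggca
DKK1: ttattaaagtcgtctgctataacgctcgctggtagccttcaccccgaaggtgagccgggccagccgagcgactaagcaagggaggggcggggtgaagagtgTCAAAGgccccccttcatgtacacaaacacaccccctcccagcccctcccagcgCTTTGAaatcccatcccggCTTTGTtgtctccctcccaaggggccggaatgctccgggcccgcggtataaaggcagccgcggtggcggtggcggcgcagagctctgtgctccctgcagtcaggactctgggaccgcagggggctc
FZD1: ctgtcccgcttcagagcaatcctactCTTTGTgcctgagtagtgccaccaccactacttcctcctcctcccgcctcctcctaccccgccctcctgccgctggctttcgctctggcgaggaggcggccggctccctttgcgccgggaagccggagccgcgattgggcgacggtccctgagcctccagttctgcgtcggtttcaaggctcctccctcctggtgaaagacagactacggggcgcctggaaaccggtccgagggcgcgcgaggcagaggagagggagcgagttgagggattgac
SP5: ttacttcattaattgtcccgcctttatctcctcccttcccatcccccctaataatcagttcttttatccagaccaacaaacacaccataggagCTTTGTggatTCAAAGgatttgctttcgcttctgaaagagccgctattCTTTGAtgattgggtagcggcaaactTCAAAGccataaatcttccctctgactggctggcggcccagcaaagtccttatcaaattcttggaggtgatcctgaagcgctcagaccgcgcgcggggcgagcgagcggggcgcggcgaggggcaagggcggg
The DKK1 and SP5 windows carry their matches within the part before the start, and the single FZD1 match lies near the upstream end. A match here is a string of letters and not a measured site.

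The rest of the pathway was read through 6 lists of other genes, of which 80 were tested. Between T47D-PA6 and T47D-VC1 7 of the 80 were called (8.75%, 5 higher and 2 lower), between T47D-PA5 and T47D-VC1 2 (2.5%, both higher), and between T47D-PA6 and T47D-PA5 10 (12.5%, 4 higher and 6 lower). These shares stand beside the 10%, 1.67% and 9.75% of all tested genes. Of 18 genes for WNT secretion and extracellular control, 7 were tested and KREMEN1 was called. KREMEN1 is a Dickkopf receptor that helps clear LRP from the membrane. It gave 1356, 1257 and 1065 in T47D-VC1, 1084, 1153 and 1026 in T47D-PA5, and 705, 717 and 748 in T47D-PA6. All T47D-PA6 arrays were below all others, at -0.75 from T47D-VC1 (adjusted p = 0.00596) and -0.59 from T47D-PA5 (adjusted p = 0.0158). With the slide as a block these were -0.70 and -0.54 (adjusted p = 0.0161 and 0.0342). Within slide 1 they were -0.94 and -0.62, and within slide 3 -0.54 and -0.49. The call against T47D-PA5 was lost without T47D-PA5 replicate 2 (adjusted p = 0.0687), T47D-PA6 replicate 2 (0.0665) or T47D-PA6 replicate 3 (0.0553), and that against T47D-VC1 by the adjusted unpaired test (0.0646). WLS, the carrier that takes WNT to the cell surface, was detected on no array by any of its 3 probes.

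Of 9 genes for R-spondins and receptor turnover 5 were tested, and LGR6 was above T47D-VC1 in T47D-PA6 (0.58, adjusted p = 0.0431). Of 17 other receptors and planar polarity genes 14 were tested, with T47D-PA6 above T47D-PA5 for CELSR3 and PRICKLE4 (0.40 and 0.69, adjusted p = 0.034 and 0.0237). LGR6, CELSR3 and PRICKLE4, and BCL9L, PYGO2, TLE1, ID2, BMP4 and ASCL2 below, are outside the rule for named genes and were named after their values were seen.

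Of 29 cytoplasmic genes 24 were tested, and NKD2 was called in both PTH-AS lines against T47D-VC1. NKD2 is a Dishevelled-binding inhibitor of canonical signalling. Its signal was 132, 108 and 112 in T47D-VC1, 228, 252 and 251 in T47D-PA5, and 229.8, 302 and 309 in T47D-PA6. Both PTH-AS lines were above T47D-VC1 on every array and overlapped with each other. The log2 fold changes were 1.25 for T47D-PA6 (adjusted p = 0.00194) and 1.06 for T47D-PA5 (adjusted p = 0.0108), with 0.19 between those lines (adjusted p = 0.452). In a fit with a slide block they were 1.21 and 1.06 (adjusted p = 0.00819 and 0.0189). Within slide 1 they were 0.80 and 0.79, and within slide 3 1.45 and 1.16. The call for T47D-PA5 was lost on leaving out replicate 3 of T47D-VC1 (adjusted p = 0.0613) or replicate 2 (0.0565) or 3 (0.0626) of T47D-PA5. By the adjusted unpaired test neither call held (0.0578 for T47D-PA6 and 0.077 for T47D-PA5).

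Of 18 nuclear factors 17 were tested. Called were 2 in T47D-PA6 against T47D-VC1 (11.8%, 1 higher and 1 lower) and 1 in T47D-PA5 against T47D-VC1 (5.88%, higher). Between T47D-PA6 and T47D-PA5 4 were called (23.5%, all lower). The shares of all tested genes were 10%, 1.67% and 9.75%. PYGO1 and BCL9, parts of the co-activator complex of beta-catenin, met the rule for named genes. PYGO1 gave 28.2, 24.8 and 24.9 in T47D-VC1, 13.3, 14.6 and 18.2 in T47D-PA5, and 7.16, 3.77 and 5.11 in T47D-PA6. The 3 lines did not overlap, and the gene was detected on 3, 1 and 0 arrays. T47D-VC1 was thus at least 2.24-fold above T47D-PA6. No bound is given for T47D-PA5, where 2 of the 3 arrays were themselves undetected. The adjusted p-values of T47D-PA6 against T47D-VC1 and T47D-PA5 (0.000928 and 0.00588) rest on undetected arrays, and the gene entered the tests through T47D-VC1 alone; with no filter on dim probes they were 0.00628 and 0.022. Such a bound sets the mean of the brighter line against the lowest detected signal on the arrays of the dimmer, or the probe's own signal where that is higher. In a fit with a slide block the adjusted p of PYGO1 was 0.00521 and 0.0181, and after background correction with an offset of 50 the T47D-PA5 difference was no longer called (adjusted p = 0.0944). By the adjusted unpaired test neither PYGO1 difference was called (adjusted p = 0.0505 and 0.0792). BCL9 gave 153, 185 and 185 in T47D-VC1, 255, 289 and 256 in T47D-PA5, and 190.4, 184 and 193 in T47D-PA6. T47D-PA5 was the higher on every array, at 0.62 over T47D-VC1 (adjusted p = 0.0326), and T47D-PA6 was -0.49 from T47D-PA5 (adjusted p = 0.0281). With the slide as a block these were 0.62 and -0.45 (adjusted p = 0.0268 and 0.0417), within slide 1 0.74 and -0.42 and within slide 3 0.47 and -0.44. The BCL9 call against T47D-VC1 was lost on leaving out replicate 2 or replicate 3 of any of the 3 lines (adjusted p from 0.0686 to 0.145). The call against T47D-PA5 was lost without T47D-PA5 replicate 2 (0.108) or 3 (0.0811) or T47D-PA6 replicate 2 (0.107) or 3 (0.0898). The former was also lost with no filter on dim probes (0.0541), by the adjusted unpaired test (0.152) and in a fit to the 2 compared lines alone (0.0802). BCL9L was above T47D-VC1 in T47D-PA6 (0.51, adjusted p = 0.0351), and PYGO2 (-0.69, adjusted p = 0.00562) and the corepressor TLE1 (-1.31, adjusted p = 0.0274) were below T47D-PA5 in the T47D-PA6 line.

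Of 25 target genes of beta-catenin and TCF 17 were tested. AXIN2, NKD1, LGR5, NOTUM and APCDD1, often used as readouts of the canonical branch, were detected on no array of any line. SP5, a zinc-finger repressor among those readouts, gave 3.15, 12.8 and 6.51 in T47D-VC1, 2.45, 7.12 and 7.48 in T47D-PA5, and 27.1, 44.9 and 45.4 in T47D-PA6. It was detected on all 3 arrays of T47D-PA6 and on none of the others. T47D-PA6 was at least 3.05-fold above T47D-VC1 and at least 2.93-fold above T47D-PA5. The adjusted p-values (0.0279 and 0.0175) rest on undetected arrays of both other lines, and the gene entered the tests through T47D-PA6 alone. With the slide as a block the adjusted p was 0.00251 and 0.00331. The call against T47D-VC1 was lost without T47D-VC1 replicate 1 (adjusted p = 0.0501) or 3 (0.0881) or T47D-PA6 replicate 2 (0.0939) or 3 (0.0972), and that against T47D-PA5 without T47D-PA6 replicate 2 (0.0705) or 3 (0.0703). Neither call held with no filter on dim probes (0.0892 and 0.0653) or by the adjusted unpaired test (0.135 and 0.085). ID2 was above T47D-VC1 in T47D-PA6 (0.72, adjusted p = 0.0359), and relative to T47D-PA5 BMP4 was higher (1.12, adjusted p = 0.0242) and ASCL2 lower (-0.67, adjusted p = 0.00848) in T47D-PA6. In T47D-PA6 against T47D-VC1 the 2 of 17 targets called are 11.8%, beside 10% of all tested genes. Between T47D-PA6 and T47D-PA5 the 3 of 17 called (2 higher and 1 lower) are 17.6%, beside 9.75%. Between T47D-PA5 and T47D-VC1 0 of 17 were called, beside 1.67%. MYC and CCND1, also targets, were at 0.16 and -0.02 in T47D-PA6 against T47D-VC1 (adjusted p = 0.627 and 0.909).

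**Figure D5:**
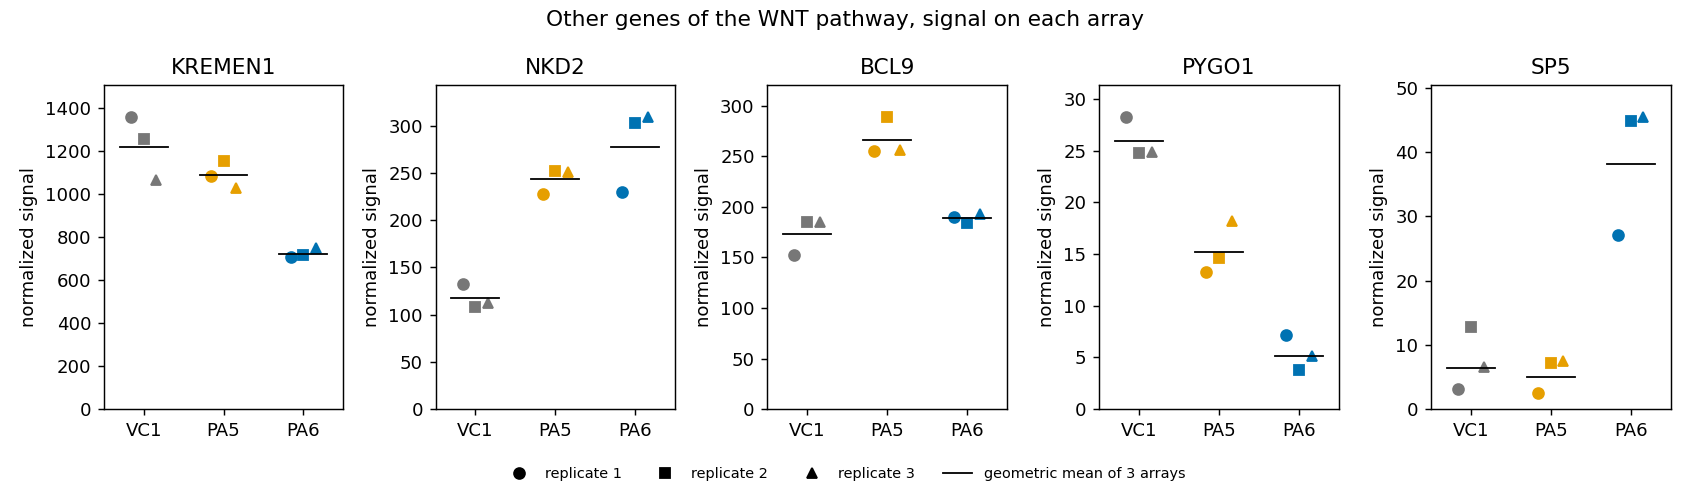
Normalized signal on each array (symbols, replicates 1 to 3; line, geometric mean) of the pathway genes KREMEN1, NKD2, BCL9, PYGO1 and SP5, with axes from 0. KREMEN1 is at 705 to 748 in T47D-PA6 against at least 1026 in the other lines, NKD2 is higher in both PTH-AS lines, BCL9 in T47D-PA5, and SP5 at 27.1 to 45.4 in T47D-PA6 against at most 12.8.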

How the data were processed

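Gene expression was measured on 9 SurePrint human 8×60K arrays, 3 for each line. Per the file headers, Feature Extraction 10.7.1.1 gave the intensity of each spot with probe positions on hg19, whereas the submitters' processing notes name version 9.5.1.1. The deposited scanner files hold the processed intensity, already corrected for background, the mean and background intensity, and flags; the table of the whole series holds the authors' quantile-normalized intensity on a linear scale, with a median of 9.06 in each of the 9 columns, and served as an alternative. Each array held 62976 spots, 60901 of them not controls, with 0 saturated and 46 to 117 outlier spots. Outlier spots were left out, except that a probe with outlier spots only kept them. The number of arrays limits the precision. Log2 processed signals were averaged over the spots of a probe and quantile-normalized with limma 3.58.1 in R 4.3.3 (package data.table, version 1.17.8). Testing required a signal well above background on all 3 arrays of some line (26172 probes), and the brightest such probe on average stood for its gene. Gene names of 31127 probes matched a RefSeq symbol, 496 a synonym and 3343 an accession, and 23235 kept the name in the file. lmFit and eBayes were fitted to the 9 arrays together (6 residual degrees of freedom), with Benjamini-Hochberg adjustment over all genes. The fit was tested on simulated data. Values within slides and a fit of single probes, and bounds for lines detected on some arrays, were added after the data were seen.

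The members and lists were chosen with earlier results of these data known. All values on the 9 arrays are given for members called in any comparison, members detected in 1 line and on no array of another, and WNT3A, WNT6 and FZD8, which a list of the study names; pathway genes are named if called against both other lines or in T47D-PA5 against T47D-VC1. Alternatives were the normalization, background correction, the authors' table, the filter, slide and replicate blocks, leaving out each array, and each scan run alone. Others were a prior trend, an unpaired t test with adjustment, a fit to 2 lines, and the mean over probes. Replicate numbers come from the endings of the sample titles, where a title without a number was taken as replicate 1. Arrays with the same number deviated together in T47D-PA6 and T47D-VC1 (correlation over genes 0.331, 0.13 and 0.238 for replicates 1, 2 and 3) and in T47D-PA6 and T47D-PA5 (0.267, 0.161 and 0.168), and less so in T47D-PA5 and T47D-VC1 (0.209, 0.099 and 0.123). The highest correlation with a different number was -0.221, 0.256 and 0.241, then -0.188, 0.15 and 0.222, and -0.13, 0.181 and 0.104. For replicates 2 and 3 the same number thus did not stand out in most cases, and the replicate block also separates the scan runs.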

Additional observations from a re-analysis of the deposited data

Results flagged for a closer look

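Among the tested members, the arrays of the 2 PTH-AS lines lay on opposite sides of the T47D-VC1 mean for FZD1, WNT4 and LRP5. The difference between those lines was called for FZD1 and WNT4 (LRP5 0.28, adjusted p = 0.166). How many of all tested genes lay on opposite sides was not counted, so the pattern cannot be read as particular to these members. Every T47D-PA5 array was above the T47D-VC1 mean of FZD1 and every T47D-PA6 array below it, with a log2 difference of -0.52 between T47D-PA6 and T47D-PA5 (adjusted p = 0.0198 by limma). Neither line was called against T47D-VC1 (adjusted p = 0.0787 for T47D-PA6 and 0.475 for T47D-PA5). WNT4 was the reverse, with every T47D-PA6 array above and every T47D-PA5 array below the T47D-VC1 mean, and a log2 difference of 1.01 (adjusted p = 0.00857). T47D-PA5 replicate 2 lay barely below that mean (77.5 for both), T47D-PA5 overlapped with T47D-VC1 and was not called against it (adjusted p = 0.555), and T47D-PA6 was called (adjusted p = 0.0239).

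Probes left out of the tests carried a detected signal in a PTH-AS line while undetected on all T47D-VC1 arrays. WNT1 was detected on 2 arrays, both of T47D-PA5 (23.2 and 23.1, with the remaining replicate at 14.8), although the other WNT1 probe was detected on no array. WNT7A was detected on 2 arrays, 1 of each PTH-AS line, and reached 63.6 on T47D-PA5 replicate 3 alone against 5.15 and 2.71 on the other arrays of that line. FZD10 was detected on 1 array, T47D-PA6 replicate 1 (20.9), with the other T47D-PA6 arrays at 2.77 and 2.80. A further WNT7B probe was detected on 1 array of T47D-PA6. With the filter on dim probes these values were not tested, and FZD10 rests on 1 array. With no filter none of the 3 genes WNT1, WNT7A and FZD10 was called (adjusted p = 0.376 and 0.925 for WNT1 and WNT7A in T47D-PA5, and 0.926 and 0.656 for WNT7A and FZD10 in T47D-PA6, against T47D-VC1); the WNT7B probe was not tested there either, as another stands for its gene.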

How the results depend on the processing

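In T47D-PA6 against T47D-VC1, 2019 genes and 2 members were called. The genes were 1296 with no filter on dim probes, 7464 on replicates 2 and 3 alone and 1139 in a fit to those lines alone. By the unpaired test they were 405 with an adjustment that the methods do not name (4462 genes and 4 members unadjusted). That test comes from the study's general statistics and is not its fold rule for array genes. The members were 1 with no filter (FZD8, lower, so that neither WNT4 nor DKK1 was called), 1 with detection required on all 9 arrays, 1 with a slide block, 8 on replicates 2 and 3 alone, 0 by the unpaired test and 1 in the fit to those lines alone. Without each array in turn the counts were 708 to 2766 genes and 0 to 3 members.

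In T47D-PA5 against T47D-VC1, 336 genes and 0 members were called. The genes were 199 with no filter, 605 with a slide block, 4309 on replicates 2 and 3 alone and 39 by the unpaired test (3012 unadjusted, with 3 members). The members were 3 on replicates 2 and 3 alone and 1 with the mean of the probes of a gene. With a replicate block there were 491 genes and 0 members. Without each array the counts were 98 to 620 genes and 0 members.

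In T47D-PA6 against T47D-PA5, 1960 genes and 3 members were called. The genes were 1263 with no filter, 7133 on replicates 2 and 3 alone and 790 by the unpaired test (4842 unadjusted, with 7 members). The members were 9 on replicates 2 and 3 alone and 0 by the unpaired test. Without each array the counts were 729 to 2941 genes and 1 to 4 members. The fit with no filter tests more genes, and a fit without an array has fewer arrays; otherwise the cause was not tested.

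With the mean of its probes, WNT3A changed sign and was called, at 0.79 in T47D-PA6 and 0.59 in T47D-PA5 against T47D-VC1, since a second probe then enters its value. Called differences of DKK1, WNT4, FZD1, FZD9, KREMEN1, PYGO1, SP5, NKD2 and BCL9 kept their sign in the alternatives run. Differences that were not called changed sign in some alternative for WNT3A, WNT6, WNT10B, FZD9, SP5 and DKK1; that of DKK1 in T47D-PA5 against T47D-VC1 (1.14) was -0.53 within slide 3. The pathway genes named after their values were seen were not run. Values within slides and the fit of single probes were chosen after seeing the data. Signal over background limits DKK1, FZD8, PYGO1 and SP5, and also WNT7B, WNT11 and the second WNT3A probe.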
